A study of Drosophila melanogaster with 29 samples.

Results

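The arrays described here set adult Drosophila melanogaster males without working Mnn1 against males titled as non-mutant. They were taken by title: 3 arrays titled mnn- male, 1 titled wt male and 1 titled control X113_X84 male. That makes 5 of the 29 arrays of the series and 5 of its 11 adult arrays. The other adult arrays held females, and 18 arrays held embryos that are not analysed here.

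The mnn- males carried alleles of Mnn1 that the labels call protein-null. Their titles name X46_Y79 on 1 array, Y79_X46 on 1 array and Y79_Y79 on 1 array. By these names only Y79_Y79 was homozygous for 1 allele, and no combination was measured more than once. How X46_Y79 and Y79_X46 differ is not stated. The control X113_X84 male was of a stock whose X113 and X84 each appear beside a mutant allele in the titles of the heterozygous females (X113_Y79 and X84_X46). The genetic background of the wt male is not given. All flies were kept at 25 °C, frozen 3 to 5 days after eclosion and used for total RNA of adults. How many flies stand behind an array is not given, and nothing says that arrays of a group came from separate cultures, so the p-values measure only the spread between these arrays. The free-text description repeated on every adult array calls its flies homozygous mutants, wt and control included, which goes against the titles. The titles were used.

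Mnn1 encodes menin, the fly homologue of the protein lost in the human tumour syndrome multiple endocrine neoplasia. Menin is a nuclear scaffold protein that joins transcription factors to complexes that methylate histone H3 on lysine 4, and in flies it is known for roles in the stress response and in genome stability. RNA of an adult male mixes that of testis, accessory glands, flight muscle, gut, fat body and other tissues. In such a mixture fewer cells of a type and less RNA per cell cannot be told apart.

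Levels are log2 RMA intensities, so a difference of 1 is a doubling. Over the 5 male arrays the median level was 5.50, with 5% of values under 3.08 and 5% over 8.67. The medians of single adult arrays lay between 5.47 and 5.53. The mnn- males resembled each other more closely than either non-mutant male: the SD of the difference between arrays over all probe sets was 0.203 to 0.229 among mnn- males, 0.270 to 0.289 between mnn- and the control male, 0.285 to 0.316 between mnn- and the wt male, and 0.340 between the wt and the control male. The non-mutant males differed by at least 1 log2 unit at 189 probe sets.

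The wt male array carried transcripts of female tissue. Of 20 measured genes for yolk, eggshell and other ovary products, 20 read highest of the 5 males in the wt male, as did 23 of 31 maternal germ line genes and 20 of 23 cell cycle genes, where 27.7% of all genes did. The yolk protein gene Yp1 read 7.51, 7.31 and 7.59 in the mnn- males and 7.34 in the control male, but 11.61 in the wt male. The transcript of osk, which builds the germ plasm of the egg, read 3.65, 3.30 and 3.13 in the mnn- males, 3.58 in the control male and 6.20 in the wt male. Summed on the linear scale over the 20 yolk and eggshell genes, the intensity of the wt male was 20.1% of that of the wt female, against 5.52% for the control male and female. Over the 31 maternal genes the shares were 23.6% and 15.2%. Male markers were strong in both non-mutant males: accessory gland genes summed to 3131% of the level in the wt female and to 2786% of that in the control female. For this reason the main results below are given against each non-mutant male apart as well as against both.

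**Figure D1:**
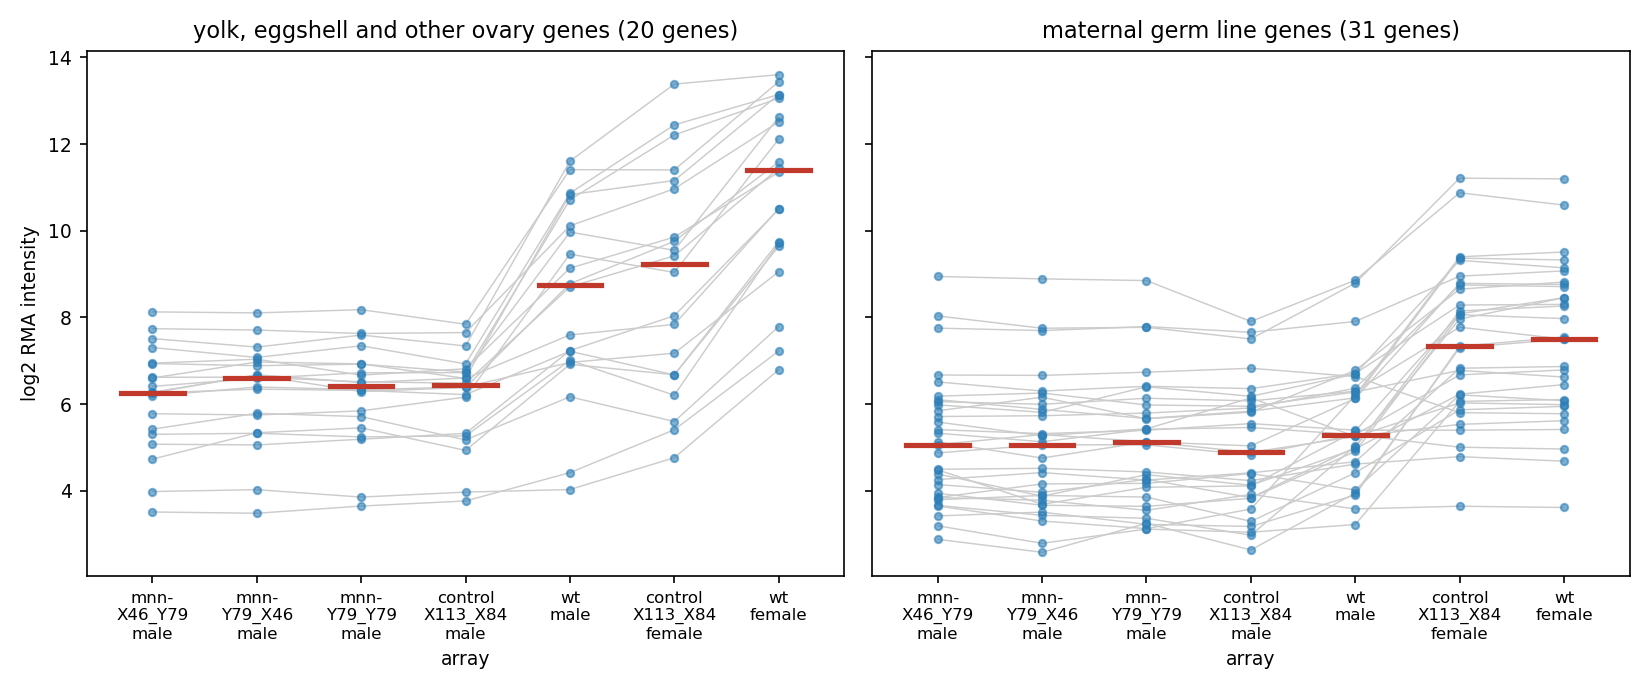
Log2 RMA intensity (vertical axis) of 20 yolk, eggshell and other ovary genes (left) and 31 maternal germ line genes (right) in 7 adult arrays, 1 point a gene, with a grey line joining the points of a gene and a red bar at the median. Median levels of the yolk and eggshell genes were 6.27 to 6.61 in the mnn- males and 6.44 in the control male, against 8.74 in the wt male.

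Mnn1 itself was the first gene looked at. It read 5.50, 5.41 and 5.17 in the X46_Y79, Y79_X46 and Y79_Y79 males, 5.51 in the wt male and 5.40 in the control male. The groups overlapped, and the mean of mnn- minus non-mutant males was -0.09 ± 0.14 (log2, SE; limma, adjusted p = 0.936). Where the probe set lies relative to the lesions is not stated, so this level checks nothing about the genotypes. Of the 5 genes on each side of Mnn1 in the annotation, 8 were measured. None of these passed, and the smallest p among them belonged to Sem1, which encodes a small subunit of the proteasome lid (-0.39 ± 0.13, adjusted p = 0.447). Its mnn- arrays read 7.03, 7.40 and 7.33, all below 7.55 in the wt male and 7.72 in the control male.

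Which transcripts differed in mnn- males was then tested across all probe sets, with the spread taken from all 11 adult arrays. With a threshold of 0.05 on the adjusted p, limma found 4 of 13966 probe sets to have fallen (0.0286%) and 0 to have risen. Before adjustment 586 were higher (4.2%) and 598 lower (4.28%) at a p under 0.05. The fallen ones read Act88F, the actin of the indirect flight muscle, Acp26Aa, which encodes the seminal protein ovulin, and 152853_at and 143320_at, of which the first lists several genes and the second none. In all 4 the 3 mnn- arrays lay below both non-mutant arrays, which 1462 probe sets did (10.5%), while 1418 had all mnn- arrays above (10.2%).

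Act88F read 6.17, 6.13 and 6.42 in the mnn- males against 7.92 in the wt male and 7.78 in the control male. The mnn- males lay close together and far from both others, and the mean fell by 1.61 ± 0.18 on the log2 scale (3.05-fold, adjusted p = 0.0135, limma). It also passed against the wt male alone (-1.68, adjusted p = 0.00988) and against the control male alone (-1.54, 0.0262), and in all 15 alternative settings (adjusted p from 0.00372 to 0.0452). In females, where this actin is also used for flight, the same contrast gave -0.59, and the test of the difference between the sexes did not pass (-1.02, adjusted p = 0.992).

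Acp26Aa read 5.93, 5.70 and 5.61 in the mnn- males against 6.89 in the wt male and 6.85 in the control male. Ovulin is made in the accessory gland and passed to the female at mating, where it raises the rate of ovulation. The non-mutant males were nearly equal and the mnn- males all lower, by 1.13 ± 0.11 in the mean (2.18-fold, adjusted p = 0.00356). Against the wt male alone the mean difference was -1.14 (adjusted p = 0.00383), and against the control male alone -1.11 (0.0109). Only when the 5 male arrays were fitted without the females did it miss the threshold (0.121), of 14 settings tried with adjusted p from 6.43e-04. In females Acp26Aa read between 2.73 and 2.98, near the bottom of the scale. Its neighbour Acp26Ab, chosen for mention after its values were seen, encodes another seminal protein and read 9.06, 9.07 and 9.12 in the mnn- males, 8.87 in the wt male and 9.02 in the control male. That is a difference of 0.14 ± 0.13, which did not pass.

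The probe set 152853_at read 3.31, 3.29 and 3.44 in the mnn- males, 4.89 in the wt male and 5.20 in the control male. This was the smallest p of all. The level fell by 1.70 ± 0.12 on the log2 scale (adjusted p = 2.67e-04), and it passed in all 14 settings tried. The mnn- values lay near the level of 3.08 that bounds the lowest 5% of the scale and near the females, which read between 2.71 and 3.20, so no fold is given for it. For 143320_at the mnn- males read 4.02, 3.74 and 3.60, the wt male 4.81 and the control male 4.73. The mean fell by 0.98 ± 0.13 (adjusted p = 0.0452), and it passed in 10 of 14 settings. Without the wt male it missed the threshold narrowly (0.0519), and over the settings the adjusted p ran from 0.00560 to 0.427.

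**Figure D2:**
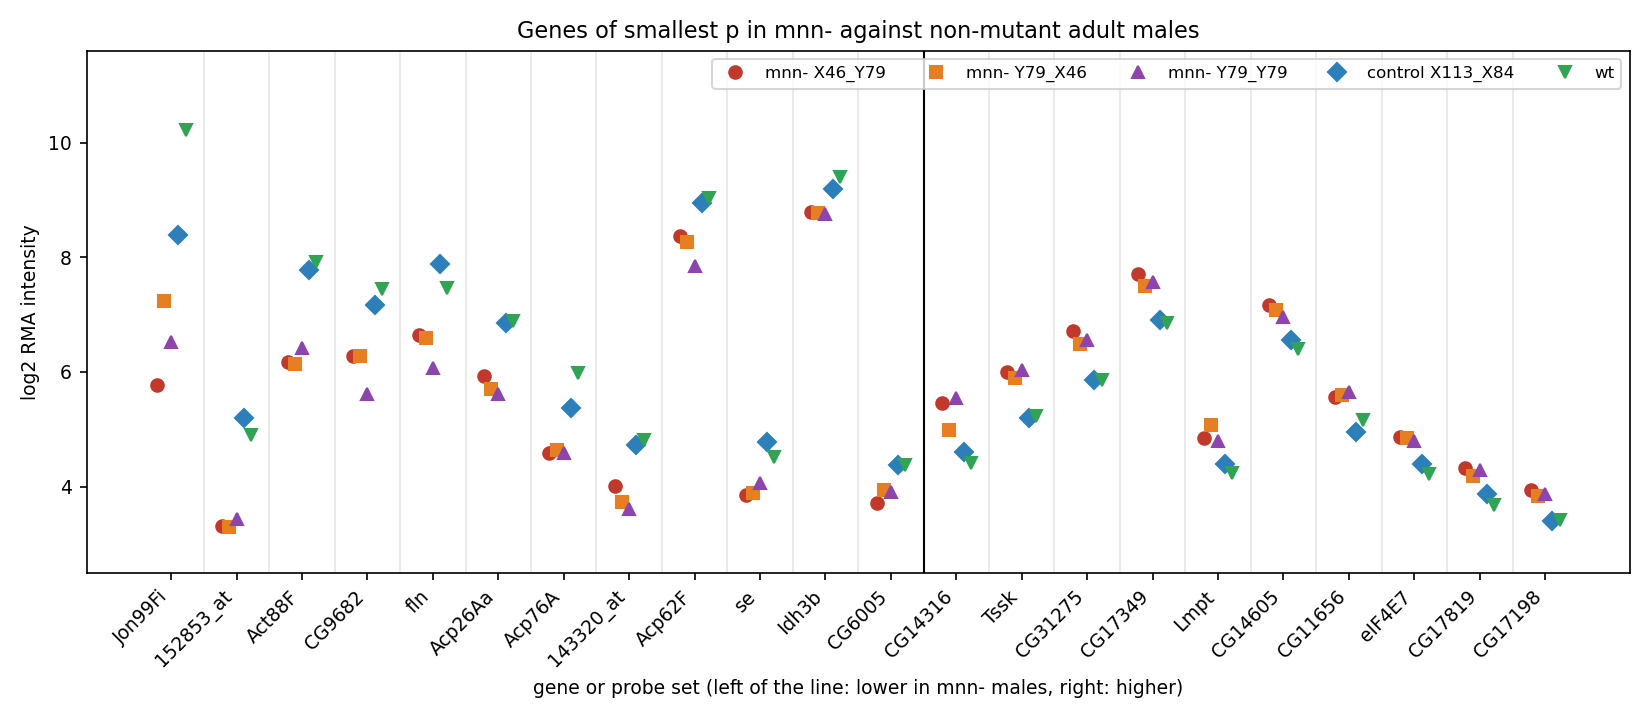
Log2 RMA intensity (vertical axis) of the probe sets with the smallest p in the mnn- male contrast, 1 point an array, lower in mnn- males to the left of the black line and higher to its right. In each the 3 mnn- points lie on 1 side of the wt and control points. Only Act88F, Acp26Aa, 152853_at and 143320_at passed the adjusted threshold.

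The next genes in p on the lower side did not pass. Acp76A, which encodes a seminal protein of the serpin family of protease inhibitors, came nearest. It read 4.59, 4.64 and 4.58 in the mnn- males, 5.98 in the wt male and 5.37 in the control male (-1.07 ± 0.15, adjusted p = 0.05003, just above the threshold). The non-mutant males lay 0.61 apart, and against either of them alone the difference passed (-1.38 against wt, adjusted p = 1.39e-04, and -0.77 against control, 0.0221). It passed in 10 of 14 settings, with adjusted p from 1.39e-04 to 0.457. Flightin, a thick filament protein of the flight muscle encoded by fln, followed. The mnn- males read 6.65, 6.59 and 6.06 for fln, the wt male 7.46 and the control male 7.88 (-1.23 ± 0.18, 0.0501). Acp62F, which encodes a seminal protein resembling trypsin inhibitors, read 8.37, 8.26 and 7.84 against 9.03 and 8.94 (-0.82 ± 0.14, 0.118).

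Others on that side were sepia (se), the gene of an enzyme of the red eye pigments, at -0.71 ± 0.11 (adjusted p = 0.108), CG6005 at -0.52 ± 0.09 (0.121), and Idh3b at -0.52 ± 0.10 (0.121), a subunit of the isocitrate dehydrogenase of the Krebs cycle. The widest of these differences was that of Jon99Fi, a digestive serine protease gene. It read 5.77, 7.23 and 6.52 in the mnn- males, 10.21 in the wt male and 8.38 in the control male (-2.79 ± 0.47, 6.90-fold, adjusted p = 0.118). All mnn- males lay below both non-mutant males, which were themselves 1.83 apart. Against the wt male alone the difference passed (-3.70, 0.00190), and against the control male alone it did not (-1.87, 0.0748). Adjusted p ran from 0.00190 to 0.541 over 14 settings.

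CG9682, CG18404 and CG11911 were looked up in males because an earlier fit of these same adult arrays, with the sexes pooled, had found them low. The males described here were among those arrays, so their values are a description and no independent check. CG9682 read 6.28, 6.27 and 5.61 in the mnn- males, 7.44 in the wt male and 7.17 in the control male (-1.25 ± 0.21, adjusted p = 0.118). CG11911 read 7.94, 7.78 and 7.42 against 8.89 and 8.55 (-1.01 ± 0.19, 0.134), and CG18404 read 8.12, 8.35 and 7.14 against 9.15 and 9.25 (-1.33 ± 0.34, 0.242). In all 3 the Y79_Y79 male was the lowest array and the groups did not overlap, but none passed in males alone. All mnn- arrays lay below both non-mutant arrays in 11.2% of all genes. In females the differences were -2.10 for CG9682, which passed there (adjusted p = 0.0310), -1.20 for CG11911 and -1.53 for CG18404, which did not. The difference between the sexes did not pass for any of them.

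No gene rose past the threshold. The nearest was CG17349, at 7.71, 7.49 and 7.56 in the mnn- males against 6.85 in the wt male and 6.90 in the control male (0.71 ± 0.10, 1.64-fold, adjusted p = 0.0501). Tssk, which encodes a testis-specific serine/threonine kinase, read 6.00, 5.89 and 6.03 against 5.24 and 5.20 (0.76 ± 0.12, 0.108). For both genes the non-mutant males were nearly equal and the mnn- males all higher. CG31275 gave 0.72 ± 0.13, CG14316 0.82 ± 0.15, CG14605 0.59 ± 0.10, CG11656 0.55 ± 0.10, CG17819 0.49 ± 0.09 and CG17198 0.47 ± 0.09. Further on that side were eIF4E7 at 0.53 ± 0.10, a paralog of the translation factor that binds the mRNA cap, and Lmpt at 0.59 ± 0.11, a LIM domain protein. Adjusted p of these 8 genes lay between 0.108 and 0.121.

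Genes that differed in mnn- males were also sorted by their level in the sexes. Taking 1 probe set a gene, 485 of 10844 genes were higher at an unadjusted p under 0.05 (4.47%) and 508 lower (4.68%). Of the 485, 229 (47.2%) were at least 1 log2 unit higher in the control male than in the control female, where 12.1% of all genes were. Of the 508, 94 (18.5%) were higher in the control male in this sense and 118 (23.2%) in the control female, where 11.9% of all genes were. Against the control male alone, 29.2% of the 727 genes higher at that p and 26.2% of the 886 lower were male-high in this sense, so both directions held more such genes than all genes did, and 11.1% and 6.09% were female-high. Against the wt male alone, 46.6% of the 594 higher and 9.86% of the 720 lower were male-high, and 2.02% and 37.8% female-high. The excess of female-high genes on the lower side was thus present with the wt male, which carried female transcripts, and absent with the control male. The control male enters both measures, so these shares are descriptions without a test.

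Gene lists by tissue give the same data by organ. For each list the estimate of mnn- minus non-mutant males was read for every measured gene, beside all genes, of which 51.9% lay below 0 and 48.1% above with a median of -0.01. The accessory gland makes the seminal proteins that change the behaviour and egg laying of mated females. Of its 26 measured genes, from 33 listed, 24 lay below 0, with a median of -0.32, and 1 passed (Acp26Aa). At an unadjusted p under 0.05, 11 were lower and 0 higher, where 4.68% and 4.47% of all genes were. In 13 of the 26 all mnn- arrays lay below both non-mutant arrays, where 11.2% of all genes did. The median was -0.22 against the wt male, with 20 genes below 0 where 54.6% of all genes were, and -0.50 against the control male, with 25 below 0 where 46.4% were. Summed intensity of the 26 genes was 15385, 15377 and 14033 in the mnn- males, 18728 in the wt male and 18763 in the control male. Acp53C14a, the gene of another seminal protein, read 8.14, 8.10 and 7.68 in the mnn- males against 8.63 and 8.67 (-0.68 ± 0.14, adjusted p = 0.146). Of 7 genes of the ejaculatory duct and bulb 6 lay below 0, with a median of -0.28 and none at an unadjusted p under 0.05.

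Flight muscle and sarcomere genes, which build the contractile apparatus, also lay largely below 0. Of 24 measured genes, from 31 listed, 18 did, with a median of -0.35, and 1 passed (Act88F). At an unadjusted p under 0.05, 10 were lower and 0 higher, where 4.68% and 4.47% of all genes were. All mnn- arrays lay below both non-mutant arrays in 14 of the 24, as they did in 11.2% of all genes. The control male was the higher of the non-mutant males in this tissue: the median was -0.51 against it, with 21 genes below 0, and -0.19 against the wt male, with 16 below 0. Against the control male alone 12 genes were lower at an unadjusted p under 0.05, where 8.17% of all genes were, and against the wt male alone 4, where 6.64% were. Summed intensity was 12163, 11429 and 12148 in the mnn- males, 13691 in the wt male and 15645 in the control male. In females 22 of the 24 lay below 0, where 51.6% of all genes did, with a median of -0.17.

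Within the muscle list the genes of smallest p after Act88F and fln were Mlp60A and Act79B. Mlp60A encodes a muscle LIM protein and read 5.65, 5.77 and 5.42 in the mnn- males against 6.21 in the wt male and 6.46 in the control male (-0.73 ± 0.14, adjusted p = 0.134). Act79B, the actin of leg and other tubular muscles, read 9.22, 9.35 and 9.34 against 9.95 and 9.90 (-0.62 ± 0.13, 0.150). The suffix of the Act79B probe set marks probes shared within a gene family, so its reading is uncertain among the actins. Of 11 Krebs cycle genes, which supply working muscle among other tissues, 9 lay below 0. Their median was -0.13 (-0.05 against the wt male and -0.26 against the control male). At an unadjusted p under 0.05, 3 of the 11 were lower, beside 4.68% of all genes. These 3 were Idh3b, Idh3g (-0.27 ± 0.10), a further subunit of the same enzyme, and SdhB (-0.36 ± 0.14), the iron-sulphur subunit of succinate dehydrogenase.

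**Figure D3:**
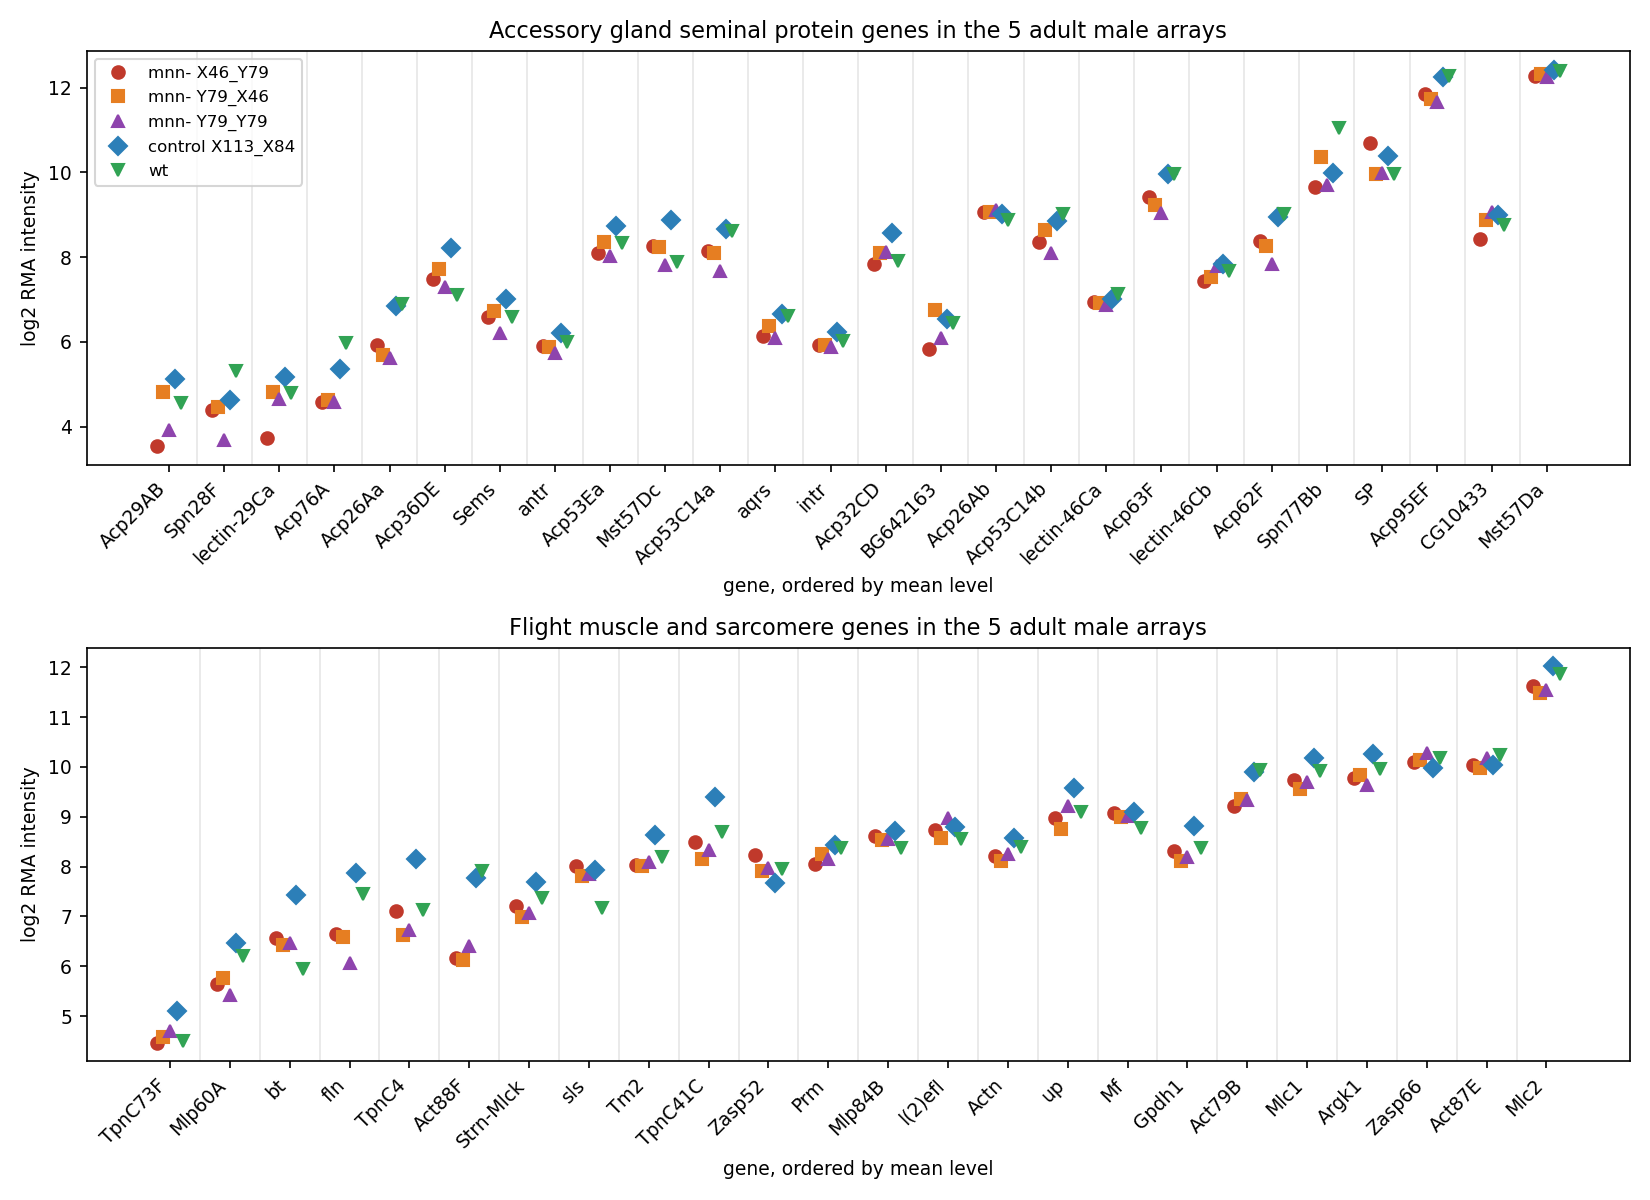
Log2 RMA intensity (vertical axis) of 26 accessory gland seminal protein genes (top) and 24 flight muscle and sarcomere genes (bottom) in the 5 adult male arrays, 1 point an array, with genes ordered by mean level. In 13 genes of the top row and 14 of the bottom row all mnn- points lie below both non-mutant points, as in 11.2% of all genes. Levels of different genes rest on different probes and are not comparable with each other.

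Sperm and spermatid genes lay on the other side. Of 38 measured genes, from 53 listed, 31 lay above 0, with a median of 0.21, and none passed. At an unadjusted p under 0.05, 9 were higher and 1 lower, where 4.47% and 4.68% of all genes were. In 12 of the 38 all mnn- arrays lay above both non-mutant arrays, where 10.4% of all genes did. The median was 0.10 against the wt male, with 27 genes above 0 where 45.4% of all genes were, and 0.19 against the control male, with 32 above 0 where 53.6% were. Against the control male alone 10 genes were higher at an unadjusted p under 0.05, where 6.7% of all genes were, and against the wt male alone 8, where 5.48% were. Summed intensity was 20178, 17902 and 17864 in the mnn- males, 17020 in the wt male and 15971 in the control male. In females, which have no testis, the median of these genes was 0.03.

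Tektin-C, a filament protein of the sperm tail, read 6.39, 6.20 and 6.28 in the mnn- males against 5.76 in the wt male and 5.70 in the control male (0.56 ± 0.13, adjusted p = 0.205). The testis paralogs of the mitochondrial import receptors Tom40 and Tom20 were next. Tomboy40 gave 6.40, 6.15 and 6.20 against 5.77 and 5.79 (0.47 ± 0.11, 0.214), and tomboy20 gave 6.90, 6.76 and 6.88 against 6.56 and 6.41 (0.36 ± 0.09, 0.242). Prosalpha4T2, a proteasome subunit of the testis, differed by 0.32 ± 0.10 (0.394). Regulators of the spermatocyte programme had a smaller median: of 13 meiotic arrest and testis transcription genes 9 lay above 0 with a median of 0.05, and none had an unadjusted p under 0.05. The smallest p there was that of bol, which is needed for entry into the meiotic divisions (0.35 ± 0.18, adjusted p = 0.666). Its levels were 8.68, 8.59 and 8.65 in the mnn- males and 8.62 in the wt male, with the control male alone lower at 7.95.

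**Figure D4:**
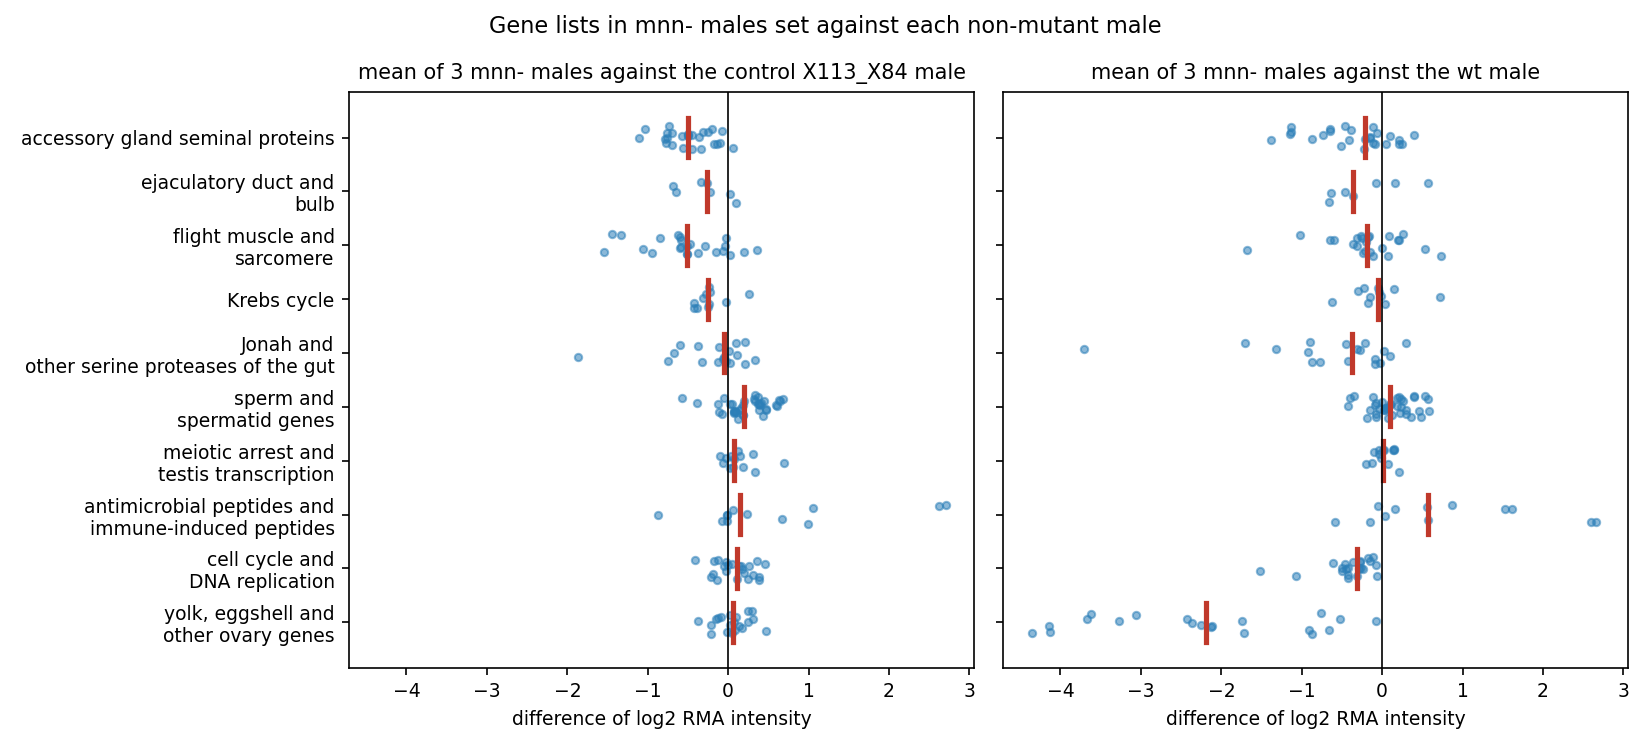
Difference of log2 RMA intensity (horizontal axis) between the mean of 3 mnn- males and the control male (left) or the wt male (right), 1 point a gene and 1 row a gene list, with a red bar at the list's median. Accessory gland medians were -0.50 and -0.22, muscle medians -0.51 and -0.19 and sperm medians 0.19 and 0.10. Yolk and eggshell genes had medians of 0.05 against the control male and -2.19 against the wt male.

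Genes of female tissue depended on which non-mutant male was used. Yolk, eggshell and other ovary genes had a median of -1.13 against the mean of both, with 20 of 20 below 0. At an unadjusted p under 0.05, 4 were lower, where 4.68% of all genes were. Against the control male alone the median was 0.05 with 7 of 20 below 0, and against the wt male alone -2.19 with 20 of 20 below 0. Cell cycle and DNA replication genes likewise had 20 of 23 below 0 against both, with a median of -0.12, which was 0.11 against the control male with 10 below 0 and -0.31 against the wt male with 23 below 0. CycB, the mitotic cyclin B gene, read 6.82, 6.74 and 6.60 in the mnn- males and 6.85 in the control male, and 8.23 in the wt male (-0.82 ± 0.29, adjusted p = 0.451). The maternal germ line genes gave a median of -0.15 against both, 0.05 against the control male and -0.30 against the wt male.

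Among immune genes the mnn- males differed widely from each other. Antimicrobial peptides are secreted by the fat body when the Toll and Imd pathways sense microbes. Of 12 measured genes, from 35 listed, 8 lay above 0, with a median of 0.35, and none passed the adjusted threshold. At an unadjusted p under 0.05, 5 were higher, where 4.47% of all genes were. Metchnikowin (Mtk) read 7.99, 10.17 and 10.92 in the mnn- males, 7.10 in the wt male and 7.07 in the control male (2.61 ± 0.61, adjusted p = 0.214). Diptericin B (DptB) read 8.40, 10.91 and 11.59 against 7.64 and 7.59 (2.68 ± 0.67, 0.242). In both all mnn- males lay above the non-mutant males, the X46_Y79 male by the least and the Y79_X46 and Y79_Y79 males by far more. Defensin (Def) read 6.81, 7.65 and 8.76 against 6.21 and 6.68 (1.29 ± 0.42, 0.396), again with Y79_Y79 highest. In CecB, a cecropin gene, the difference was 0.41 ± 0.14 (0.407). The list's median was 0.57 against the wt male and 0.15 against the control male, and 0.01 in females.

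Of 23 genes of immune recognition and signalling 13 lay above 0, with a median of 0.01 (0.02 against the wt male and -0.01 against the control male). PGRP-SB1, a peptidoglycan recognition protein, repeated the order of the peptides, at 7.44, 9.46 and 9.74 in the mnn- males against 7.69 and 7.57 (1.25 ± 0.52, adjusted p = 0.536). Fadd, the Imd pathway adaptor, read 3.52, 3.47 and 3.62 against 2.83 and 3.20 (0.52 ± 0.12, 0.214), and GNBP3, which recognises fungal glucans, 5.77, 5.88 and 6.07 against 6.28 and 6.42 (-0.45 ± 0.12, 0.284). PGRP-LE, an intracellular sensor of the Imd pathway, differed by -0.22 ± 0.09 (0.522).

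A difference of at least 2 log2 units was reached by 14 probe sets, which are named here after their values were seen. None passed. The 8 higher ones were Mtk, DptB, CG14499, tobi, Fst and the probe sets 147150_at, 143609_at and 143443_at, for which no gene is named. The widest was 143443_at, at 7.61, 9.96 and 11.18 in the mnn- males against 5.69 and 5.31 (4.09 ± 0.75, adjusted p = 0.121), in the same order of arrays as DptB. The other two unnamed probe sets kept that order too, at 6.996, 9.99 and 10.46 for 147150_at and 6.05, 8.40 and 9.35 for 143609_at. Different arrays were high for tobi, an alpha-glucosidase gene under insulin control, which read 7.88 and 8.21 in the X46_Y79 and Y79_X46 males but 4.45 in Y79_Y79, beside 4.47 and 4.71 in the non-mutant males. Fst, a gene induced on recovery from cold, read 9.10, 7.03 and 9.04 against 6.59 and 5.53. Of the 6 lower ones, Vm34Ca, Yp2, Muc12Ea, Cp38 and Yp1 were high in the wt male alone among males, and Jon99Fi was the sixth.

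**Figure D5:**
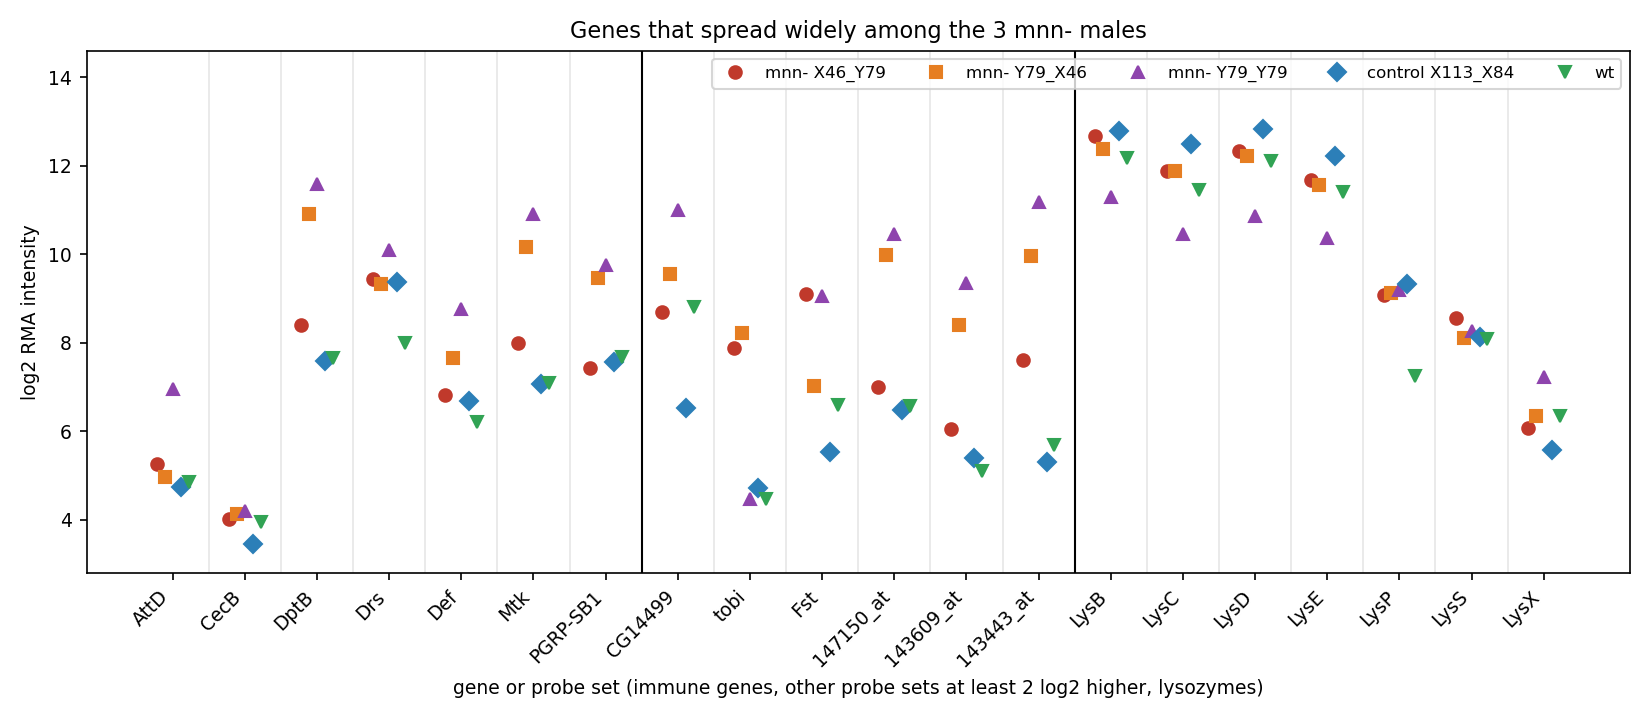
Log2 RMA intensity (vertical axis) in the 5 adult male arrays, 1 point an array, of immune genes (left), other probe sets at least 2 log2 units higher in mnn- males (middle) and lysozyme genes (right). For Mtk and DptB the X46_Y79 male lies at 7.99 and 8.40 and the Y79_Y79 male at 10.92 and 11.59. LysD and LysE lie lowest in the Y79_Y79 male, at 10.87 and 10.36.

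Digestive genes were read from the gut lists. Of 18 Jonah and related serine proteases 16 lay below 0, with a median of -0.25. At an unadjusted p under 0.05, 4 were lower, where 4.68% of all genes were. The median was -0.37 against the wt male, with 15 below 0 where 54.6% of all genes were. Against the control male it was -0.06, with 11 below 0 where 46.4% were. The wt male read highest of the 5 males in 11 of the 18, as it did in 27.7% of all genes. In females the median was -0.58. After Jon99Fi came Jon44E at 7.18, 7.88 and 6.95 in the mnn- males against 8.23 and 8.01 (-0.79 ± 0.26, adjusted p = 0.407), Jon74E (-0.60 ± 0.23, 0.490) and Jon25Biii (-0.96 ± 0.43, 0.582). Trypsins had 8 of 10 below 0 with a median of -0.18, which was -0.27 against the control male with 8 below 0 and 0.0044 against the wt male with 4 below 0. Sugar and fat digestion had 16 of 23 below 0 with a median of -0.12, which was -0.08 against the wt male with 16 below 0 and 0.03 against the control male with 10 below 0. For both lists the direction thus held against 1 of the non-mutant males and not against the other. Lysozymes differed between mnn- males: LysD read 12.34, 12.22 and 10.87 against 12.11 in the wt male and 12.83 in the control male, and LysE 11.68, 11.56 and 10.36 against 11.41 and 12.23. The Y79_Y79 male was lowest in both. Their probe sets share probes within the lysozyme family, so they are no independent readings. LysP, from a probe set of its own, read 9.09, 9.12 and 9.19 in the mnn- males and 9.34 in the control male, with the wt male alone lower at 7.23.

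Menin and the complexes that methylate histone H3 on lysine 4 were examined as a list of 21 measured genes, which also held the remodelling gene kis. Of these 18 lay below 0, with a median of -0.10, and none passed. The median was -0.13 against the wt male, with 17 below 0, and -0.02 against the control male, with 14 below 0. The gene kis, which encodes a chromodomain remodelling protein and is named here after its values were seen, passed against the control male alone. It read 5.16, 5.22 and 5.48 in the mnn- males and 5.11 in the wt male, with the control male alone higher at 6.47 (-1.18 ± 0.14, adjusted p = 0.0100). Against both males the single gene of the 21 at an unadjusted p under 0.05 was Dpy-30L2, a paralog of a core subunit of these complexes. Of all genes 4.47% were higher and 4.68% lower at that p. Dpy-30L2 was higher, at 9.69, 9.61 and 9.63 in the mnn- males against 9.53 and 9.23 (0.26 ± 0.11, adjusted p = 0.535). Utx, a histone H3 demethylase, followed at -0.20 ± 0.10 (0.638). Among 14 Polycomb group genes 11 lay below 0, with a median of -0.08, which was -0.11 against the wt male with 9 below 0 and 0.04 against the control male with 5 below 0. E(z), the methyltransferase of the repressive complex, read 5.88, 5.78 and 5.84 against 5.57 and 5.57 (0.26 ± 0.10, 0.468). Of 4 measured Hox genes, whose upkeep in mammals involves menin, 2 lay above and 2 below 0, and the smallest p was that of pb (-0.14 ± 0.12, 0.854). The median level of these 4 genes was 3.09 to 3.35 in the male arrays. That is near the level of 3.08 that bounds the lowest 5% of values, so a change in them could be missed.

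Lists tied to the known roles of fly menin also depended on the non-mutant male. Among 12 heat shock and chaperone genes 8 lay above 0, with a median of 0.02 and none at an unadjusted p under 0.05, and the smallest p was that of Hsc70-4, a constitutive chaperone gene (0.21 ± 0.09, adjusted p = 0.597). The median was 0.20 against the control male alone, with 9 above 0, and -0.02 against the wt male alone, with 6 above 0. Of 28 DNA repair and checkpoint genes 19 lay below 0, with a median of -0.07. At an unadjusted p under 0.05, 4 were lower and 1 higher, where 4.68% and 4.47% of all genes were. Against the wt male alone the median was -0.12, with 20 below 0, and against the control male alone -0.03, with 16 below 0. The p53 gene read 5.27, 5.28 and 5.37 in the mnn- males against 5.73 in the wt male and 5.52 in the control male (-0.32 ± 0.11, 0.418). AP-1, JNK and TGF-beta signalling had 12 of 22 below 0 and a median of -0.02, with none at an unadjusted p under 0.05. Its median was 0.11 against the wt male alone, with 18 above 0, and -0.07 against the control male alone, with 12 below 0. In the joint fit the smallest p belonged to wit, a receptor of the BMP branch (-0.16 ± 0.12, 0.813).

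Of the other body lists, detoxification had 38 of 64 below 0 with a median of -0.04 (-0.05 against wt, -0.04 against control). Its smallest p was that of the cytochrome P450 gene Cyp6a21, at 6.14, 6.24 and 6.22 in the mnn- males against 6.83 and 6.67 (-0.55 ± 0.13, adjusted p = 0.214). Haemocyte and basement membrane genes had 19 of 24 below 0 with a median of -0.07 (-0.08 against wt, -0.20 against control), led by the collagen gene Col4a1 (-0.52 ± 0.17, 0.398). Fat body and metabolism had 21 of 29 below 0 with a median of -0.09. Against the control male alone the median was -0.14, with 20 below 0, and against the wt male alone 0.0050, with 14 below 0. AkhR, the adipokinetic hormone receptor gene, passed as lower against the control male alone (-0.76, adjusted p = 0.0354) and FASN1, a fatty acid synthase gene, as higher against the wt male alone (0.78, 0.0241), and both are named after their values were seen. In the joint fit the list's smallest p was that of Pfk, the phosphofructokinase of glycolysis, at 8.32, 8.38 and 8.39 against 8.67 and 8.66 (-0.30 ± 0.08, 0.269). Nervous system genes had 8 of 15 above 0 with a median of 0.02 (0.0054 against wt, 0.0018 against control). Among them ChAT, which makes acetylcholine, gave -0.46 ± 0.11 (0.214). For phototransduction and eye genes the median was -0.03 over 14 genes (0.06 against wt, 0.0070 against control), with the channel gene trp at -0.45 ± 0.15 (0.415). Clock genes had a median of -0.07 over 12 (-0.08 against wt, 0.02 against control), with the F-box gene jet at 0.15 ± 0.09 (0.747). Dosage compensation and sex determination had -0.06 over 12 (-0.09 against wt, -0.0013 against control), with the helicase gene mle at -0.13 ± 0.09 (0.788).

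Whether the mnn- difference was the same in both sexes was tested with the female arrays, where 1 probe set, that of CG9682, passed in mnn- against non-mutant females (0.00716%). The test of the difference between the sexes called 0 of 13966 probe sets by limma, and 637 had an unadjusted p under 0.05 (4.56%), 304 of them higher in males (2.18%) and 333 lower (2.38%). The smallest p were those of Acp26Aa, with a male minus female difference of -1.32, and 152853_at, with -1.36, both at an adjusted p of 0.0619. Both read near the bottom of the scale in every female. The next on the side lower in males were Acp76A (-1.18), CycT (-0.82), which encodes the cyclin T of the elongation factor P-TEFb, the transcription factor gene apt (-0.87), CG13917 (-0.64) and CG2926 (-0.62). Acp76A also read near the bottom of the scale in every female, between 2.75 and 2.98. CycT read 6.39, 6.20 and 6.58 in the mnn- males against 6.75 and 6.78, while its difference in females was 0.45.

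On the side higher in males the smallest p belonged to CG11656, CG14316, CG4520, CG31948, CG10845 and CG14292, with male minus female differences of 0.62, 0.97, 0.92, 0.92, 0.77 and 0.95. Adjusted p was 0.992 for all of these and for those on the lower side after Acp26Aa and 152853_at. CG14292 read 11.28, 11.46 and 11.75 in the mnn- males against 10.79 and 10.90, and its difference in females was -0.30. In each of these 6 genes all mnn- males lay above both non-mutant males, as in 10.2% of all probe sets. The genes were picked with these same male arrays, so this is a description only. With each stock compared with its own females, a fit chosen after seeing the data in which the Y79_Y79 male has no partner, 1 probe set passed, that of tobi (2.31 ± 0.18, adjusted p = 0.00817). It read 7.88 and 8.21 in the X46_Y79 and Y79_X46 males and 5.14 and 5.43 in the females of these stocks. The wt male and female read 4.47 and 4.15, and those of the control 4.71 and 4.12. The Y79_Y79 male, which does not enter this estimate, read 4.45, near the wt and control males. The fit by stock left 2 residual degrees of freedom. In the main test of the difference between the sexes, which includes the Y79_Y79 male, tobi gave 1.12 and did not pass (limma, adjusted p = 0.996). The female wt and control arrays serve in the female contrast of this test, and the wt and control males in the male contrast.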

How the data were processed

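Total RNA of adult flies was hybridised to 1-colour Affymetrix arrays. The deposited adult table holds a log2 intensity for each probe set and array. Per the submitters' processing notes it was made by RMA, with affy 2.12.0. Whether all 11 adult arrays were summarised together is not stated, and no genome build is given in the sources used here. Arrays give no molecule count, so their number limits the precision.

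The table has 14010 probe sets, of which 13966 were tested and 44 AFFX controls dropped. Of these 12443 list 1 gene, 327 several and 1196 none. Current symbols were found for 12394 of the single-gene probe sets in the RefSeq gene table, and 10844 genes resulted, each read from its probe set of highest mean level. The contrast of 3 mnn- against 2 non-mutant males was fitted with lmFit and eBayes of limma 3.58.1 (R 4.3.3), on all 11 adult arrays with 5 levels of sex and genotype, which gave 6 residual degrees of freedom. Tests were two-sided with Benjamini-Hochberg adjustment over all 13966 probe sets and a threshold of 0.05. Errors are standard errors of that fit. With 1 non-mutant male left out, the lone array was assumed to vary like the other groups. The code was tested on simulated data.

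Genes named are Mnn1, those past the threshold whose groups do not overlap, then those of smallest p up to 10 a direction. To these come 6 a direction for the difference between the sexes, 1 to 4 members of each list by smallest p, CG9682, CG18404, CG11911, and 5 neighbours on each side of Mnn1. Members, rule and 28 lists were chosen with earlier results of these data known, so the lists carry no test and no independent support. Alternatives changed the arrays, the normalization, the filter, a block for the stock and the prior of the variance. The embryo table was not used.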

Additional observations from a re-analysis of the deposited data

How the results depend on the processing

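The number of calls in mnn- against non-mutant males, 0 higher and 4 lower, depended on which arrays entered. Leaving out 1 array gave 3 to 44 higher and 3 to 61 lower: 18 and 30 without the wt male, 44 and 61 without the control male, 12 and 6 without the X46_Y79 male, 3 and 4 without Y79_X46, and 3 and 3 without Y79_Y79. With wt and control as separate levels there were 30 and 69, and with both wt arrays left out, an alternative chosen after seeing the data, 25 and 40. With either change the difference between the wt and control arrays no longer enters the spread. Without the wt arrays the male contrast is also against the control male alone. The 5 male arrays alone gave 0 and 2, and the fit without dim probe sets (5334 kept, mean level of at least 6) 0 and 1. That filter dropped Acp26Aa, 152853_at and 143320_at, whose mean levels over the 11 adult arrays were 4.37, 3.44 and 3.91. These were therefore not tested in that setting, and Act88F was the call left. Centring each array on its median gave 1 and 5, robust eBayes 1 and 6, and leaving out 1689 probe sets higher in females 1 and 6. Quantile normalization and an intensity trend each gave 0 and 5. The cause of the other shifts was not tested.

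The difference between the sexes had 0 calls, 0 to 27 with 1 array left out (2 without the wt male, 27 without the control male, 9 without the X46_Y79 male), 19 with wt and control as separate levels, and 2 each with an intensity trend, robust eBayes and without the probe sets higher in females. Of the 33 probe sets followed through the settings only Mnn1 turned sign, and it ran from -0.17 without the X46_Y79 male to 0.0017 without the Y79_Y79 male. The median of all probe sets stayed between -0.02 and 0.02 in every setting. Array numbers are not shared between groups, but 4 stocks have an array of each sex. With stock as a replicate block, alternatives chosen after seeing the data, a random block (consensus correlation -0.02) gave 1 higher, 6 lower and 0 calls between the sexes, and a fixed block, which leaves 2 residual degrees of freedom and cannot give the male contrast, 1 call between the sexes.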
